A study of Rattus norvegicus with 33 samples.

Results

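The comparison described here set rats that carried an rhBMP-2-loaded sponge for 7 days against rats that carried no sponge, in dorsal root ganglia (DRG), the clusters of sensory nerve cell bodies beside the spine. Its members were 8 of the 33 arrays of the series, taken by their labels alone: 4 arrays of rhBMP-2/ACS at 7 days post-surgery (dps) and 4 of no sponge at 7 dps. All 8 came from female Sprague-Dawley rats of 13 weeks (supplied as Sasco rats), from L4/L5 DRG. In rhBMP-2/ACS rats an absorbable collagen sponge soaked with recombinant human bone morphogenetic protein 2 had been laid on 1 side over the transverse processes of L4 and L5. Per the study's methods, no sponge rats had the same surgery without an implant, whereas the labels give their treatment as none. The difference between these groups holds the joint effect of the sponge and of the protein. If none in the labels means no surgery, it holds the effect of the surgery too, and these cannot be told apart here. The 4 vehicle/ACS arrays of 7 dps, from rats whose sponge held buffer only, are given beside it. RNA was measured on bead arrays with 22523 probes, and the whole series also covers 1 and 3 dps.

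BMPs bind paired type I and type II receptor kinases, which phosphorylate Smad transcription factors, and these switch on targets such as the Id genes, the inhibitory Smads and, in liver, hepcidin. DRG hold the cell bodies of sensory neurons, wrapped by satellite glia, with Schwann cells, resident macrophages, vessels and a connective tissue capsule. After damage to their axons, sensory neurons are known to switch on a set of transcription factors and neuropeptides, such as Atf3, Gal, Npy and Vip. The ganglion, like most tissues, also runs a circadian clock in which Bmal1 drives the Per genes and Nr1d1, and these in turn restrain Bmal1.

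All values below are log2 intensities after background correction and quantile normalization, 1 per array, listed for replicates 1 to 4 in turn, and differences are rhBMP-2/ACS minus no sponge on the log2 scale with their standard error (SE). An adjusted p is that of limma's moderated test, fitted to all 33 arrays and adjusted by Benjamini-Hochberg over all probes tested, and "rose", "fell" and "changed" are used only below 0.05. Detected probes numbered from 11350 to 11656 on the rhBMP-2/ACS arrays and from 10694 to 11360 on the no sponge arrays. All 22 sensory neuron markers measured, among them Uchl1, Prph and Isl1, were detected on all 8 arrays, and none of them passed the test, with a median difference of −0.10. In 5 of the 22 every rhBMP-2/ACS array lay below every no sponge array (6.4% over all probes), and 4 of the differences were above 0. In the same markers 4 passed lower with vehicle/ACS at 7 dps and 5 passed lower with rhBMP-2/ACS at 3 dps. Replicate 3 of rhBMP-2/ACS stood apart: it had the highest mean level of its group for granulocyte, erythrocyte, skeletal muscle contractile and extracellular matrix genes, and results that rest on it are given without it. The labels also number the 7 dps arrays, with the sponge arrays at 1 to 8 and no sponge at 9 to 12, so that whatever order these numbers stand for cannot be told apart from the absence of a sponge. A DRG number in the labels was even, from 4 to 24, for the sponge arrays and ran from 25 to 28 for no sponge. What it stands for, and the side of the ganglia, the labels do not say. In whole ganglia, a change in the number of cells of a type and a change in RNA per cell cannot be told apart.

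At 7 dps 455 of 11226 probes changed, 321 higher with rhBMP-2/ACS (2.86% of the probes tested) and 134 lower (1.19%). Each count of list members that rose or fell below is to be read beside these shares over all probes. The higher calls were the larger in size: their median difference was 0.71, 78 exceeded 2-fold and 16 exceeded 4-fold, while the median of the lower calls was −0.43 and 4 exceeded 2-fold. The median over all probes tested was −0.03. In 403 of the 455 the groups of 4 did not overlap, and over all probes tested the groups did not overlap with rhBMP-2/ACS higher in 6.57% and lower in 6.4%. Detection differed too: 72 of the higher calls were detected on fewer than 3 no sponge arrays and 18 of the lower calls on fewer than 3 rhBMP-2/ACS arrays. With medians equalized between arrays in place of quantiles, 373 probes were called higher and 15 lower, so that 96.1% of the calls were higher against 70.5%, and most lower calls were lost with that scaling. Without rhBMP-2/ACS replicate 3 the count was 162, 159 of them among the 455. Leaving out rhBMP-2/ACS replicate 4 gave 301, and leaving out no sponge replicate 1, 2 or 3 gave 262, 301 and 281. The count was 683 with array weights and 24 with a per-gene test of unequal variances after Benjamini-Hochberg adjustment, which called 10 of the 83 named genes that limma called. By the looser rule of a minimal fold change and an unadjusted p that the methods give, 192 probes were higher and 24 lower.

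**Figure D1:**
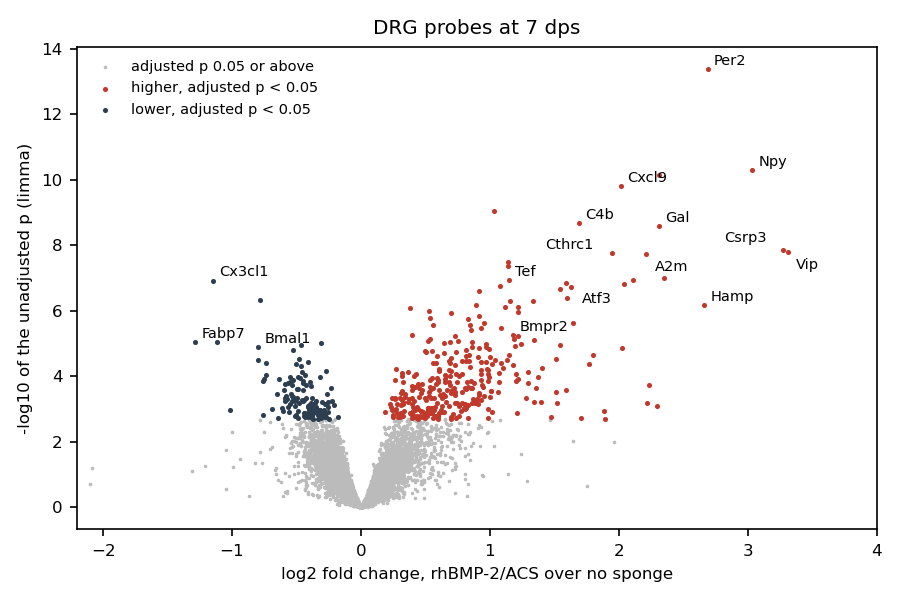
Difference between rhBMP-2/ACS and no sponge at 7 dps (x axis, log2) against the unadjusted p of limma's test (y axis, −log10) for the 11226 probes tested, 4 arrays a group, with called probes coloured and some of the genes described here named. The 321 higher calls reach further from 0 than the 134 lower calls, and Per2 has the lowest p.

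Several of the largest differences belonged to genes of nerve injury and regeneration. Of 29 measured genes of this list 14 rose and none fell, with a median of 0.58 against −0.03 over all probes, and without rhBMP-2/ACS replicate 3 the count was 10. The list's mean level was 7.76 to 7.88 on the rhBMP-2/ACS arrays and 6.95 to 7.01 on the no sponge arrays. In all, 7 of the 29 were detected only with rhBMP-2/ACS by the 3-of-4 rule, and such genes had to differ in detection.

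Vip, a neuropeptide of injured sensory neurons, gave 8.18, 8.35, 8.01 and 7.45 on the rhBMP-2/ACS arrays and 5.01, 4.48, 4.45 and 4.81 on the no sponge arrays. It was detected on 1 of the 4 no sponge arrays, and its difference was 3.31 ± 0.43 (SE), adjusted p = 1.88e-05. Npy, another peptide that injured large sensory neurons are known to start making, stood at 10.62, 10.65, 10.67 and 10.91 against 7.68, 7.88, 7.78 and 7.37. This was a difference of 3.04 ± 0.30 (SE), adjusted p = 2.71e-07, or 8.22-fold, and the groups were far apart. Gal, which encodes galanin, gave 9.71, 9.61, 9.39 and 9.59 against 7.27, 7.34, 7.28 and 7.17, with a difference of 2.31 ± 0.28 (SE), adjusted p = 4.26e-06. The no sponge arrays lay close together for Gal, and none came near an rhBMP-2/ACS array. Atf3, the transcription factor most used to mark axotomized neurons, was at 8.04, 7.68, 8.11 and 7.83 with rhBMP-2/ACS and at 5.72, 5.94, 6.00 and 5.85 without a sponge. It rose by 2.04 ± 0.30 (SE), adjusted p = 8.85e-05, a 4.11-fold difference.

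Csrp3, the muscle LIM protein, which is also made by injured rat sensory neurons, was at 7.77, 8.04, 7.41 and 7.81 with rhBMP-2/ACS and at 4.38, 4.42, 4.65 and 4.49 without a sponge. Because no no sponge array detected it, its change is a bound: at least 6.79-fold, set against the dimmest signal that counted as detected on those arrays, with a fitted difference of 3.27 ± 0.43 (SE), adjusted p = 1.88e-05. Ankrd1, a muscle repeat protein likewise known from injured ganglia, was undetected on the no sponge arrays too. It was at least 2.15-fold higher, with a fitted difference of 1.51 ± 0.31 (SE), adjusted p = 0.00374. Of 15 measured contractile genes only Tnnt3, a troponin, changed (0.89, adjusted p = 0.0234), the list's median was 0.03, and Tnnt3 was not called without rhBMP-2/ACS replicate 3 or without no sponge replicate 1 or 3 (adjusted p = 0.138, 0.0868 and 0.0502). The myogenic factors Myod1 and Myog were detected on none of the 8 arrays. Contractile genes averaged 6.55 to 7.20 with rhBMP-2/ACS, replicate 3 being the highest, and 6.52 to 6.86 without a sponge, and their part in the result for Csrp3 and Ankrd1 was not tested.

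Further members of the injury list were smaller in size. Arg1, an enzyme of arginine breakdown, rose by 1.41 (adjusted p = 0.00579), Flrt3, an axonal adhesion protein, by 1.18 (0.00161), and Gadd45a, a stress response gene, by 0.92 (0.00217). Sox11, a transcription factor of axon growth, rose by 0.88 (0.0254) and Jun, a partner of Atf3, by 0.59 (0.00865). Jun was not called without rhBMP-2/ACS replicate 3 (adjusted p = 0.0537). The cytokine gene Il24, the receptor gene Cckbr and the peptidase gene Ecel1 were detected on all 4 rhBMP-2/ACS arrays and on no no sponge array, and were at least 1.32-fold, 1.29-fold and 1.31-fold higher. Their fitted differences were 0.83, 0.69 and 0.78 (adjusted p = 0.000524, 0.00177 and 0.00748). Anxa1, an anti-inflammatory annexin, rose by 0.42 (0.0342) and Tnfrsf12a by 0.91 (0.0266). Anxa1 was not called without rhBMP-2/ACS replicate 3 or 4 (0.164 and 0.0624) or without any single no sponge array (0.0583 to 0.0817). Its call was also lost with medians equalized (0.0566) and with the replicate block (0.0565). Crh, a stress neuropeptide, was uneven: it gave 7.01, 4.59, 7.30 and 7.94 with rhBMP-2/ACS, replicate 2 being as low as the no sponge arrays (4.61, 4.79, 4.92 and 4.67, all below detection), and did not pass (at least 3.28-fold by the group means, fitted difference 1.96 ± 0.71 (SE), adjusted p = 0.119). All of these adjusted p-values are limma's.

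**Figure D2:**
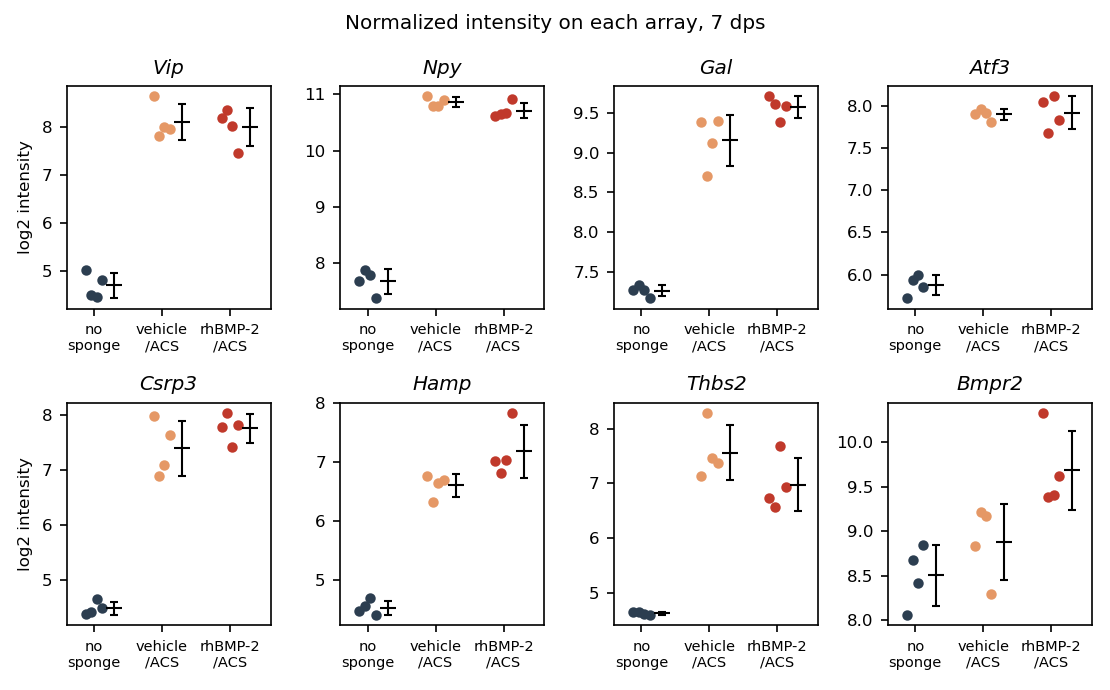
Log2 intensity (y axis) of genes with large differences on each 7 dps array of no sponge, vehicle/ACS and rhBMP-2/ACS, with points for single arrays and black bars for the mean and SD of 4. Every array of both sponge groups lies above every no sponge array for all genes shown but Bmpr2, where vehicle/ACS overlaps no sponge.

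The proximal promoters of Vip and Gal are shown because both peptide genes rose together and both are textbook targets of cAMP response element binding. The 250 bases before the annotated start were taken from RefSeq (build GRCr8), written 5′ to 3′ in the direction of the gene, with the letters TGACG or their reverse complement in capitals, the core of that element.
Vip (chr1:44470230-44470479, plus strand): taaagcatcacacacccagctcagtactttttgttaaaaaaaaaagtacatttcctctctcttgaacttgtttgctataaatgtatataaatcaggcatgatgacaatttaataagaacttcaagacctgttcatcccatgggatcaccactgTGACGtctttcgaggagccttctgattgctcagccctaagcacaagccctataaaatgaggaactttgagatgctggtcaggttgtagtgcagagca
Gal (chr1:210084573-210084822, minus strand): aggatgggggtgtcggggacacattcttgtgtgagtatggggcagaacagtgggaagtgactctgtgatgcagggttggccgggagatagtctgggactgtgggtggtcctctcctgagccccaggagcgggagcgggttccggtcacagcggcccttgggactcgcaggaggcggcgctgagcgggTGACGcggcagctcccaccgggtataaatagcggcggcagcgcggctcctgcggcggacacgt
The letters began 97 bases before the start in Vip and 63 in Gal. Searched on both strands, they occurred in 18.2% of 33469 such promoters, and the full palindrome TGACGTCA, held by 1.59%, was in neither window. Neither Npy nor Sox11 held these letters. A match of letters is a description of the window only.

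The circadian clock list changed in both directions. Of 11 measured genes 6 rose and 1, Bmal1, fell, with a list median of 0.68. Without rhBMP-2/ACS replicate 3 these counts were 4 and 1, and without no sponge replicate 2 they were 5 and 1. Per2, a repressor of the clock loop, had the lowest adjusted p of all probes tested: it gave 9.37, 8.94, 9.32 and 9.18 with rhBMP-2/ACS and 6.68, 6.29, 6.69 and 6.39 without a sponge. This was a difference of 2.69 ± 0.20 (SE), adjusted p = 4.58e-10, or 6.45-fold. Tef, an activator that binds D-box elements, stood at 7.23, 6.50, 7.05 and 7.06 against 5.97, 5.83, 5.69 and 5.77 and rose by 1.15 ± 0.17 (SE), adjusted p = 7.94e-05. Neither gene overlapped between the groups. Bmal1, the driver of the loop, was lower with rhBMP-2/ACS, at 5.28, 5.38, 5.68 and 5.10 against 6.31, 6.03, 6.04 and 6.25, and fell by 0.80 ± 0.15 (SE), adjusted p = 0.00215.

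Nr1d1, the nuclear receptor that represses Bmal1, gave 7.79, 6.60, 7.90 and 7.66 with rhBMP-2/ACS and 6.72, 6.30, 6.41 and 6.80 without a sponge, so that replicate 2 of rhBMP-2/ACS lay within the no sponge range. Its difference was 0.93 ± 0.20 (SE), adjusted p = 0.00614, and without rhBMP-2/ACS replicate 3 it was not called (adjusted p = 0.05). Per1 stood at 8.86, 8.89, 9.19 and 8.94 against 8.64, 8.01, 8.11 and 8.39, with a difference of 0.68 ± 0.16 (SE), adjusted p = 0.0101. It was not called without rhBMP-2/ACS replicate 3 or without no sponge replicate 2 (adjusted p = 0.0628 and 0.0511). Bhlhe40, a further clock repressor, rose by 0.84 ± 0.17 (SE), adjusted p = 0.00405, and Wee1, a cell cycle kinase under clock control, by 0.70 ± 0.12 (SE), adjusted p = 0.000374. The remaining 4 measured members did not pass the test: Cry1 differed by 0.47, Dbp by 0.21, Nfil3 by 0.12 and Cry2 by −0.00. The labels do not give the time of day at which tissue was taken.

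Promoters of the changed clock genes are shown because the clock's loops work through known short elements: the E-box CACGTG and its variant CACGTT (activated by Bmal1 and its partner), the D-box TTATGTAA, and TAGGTCA, which Nr1d1 and the ROR receptors bind. Each line gives the 250 bases before the start from RefSeq (build GRCr8), 5′ to 3′ in the direction of the gene, with any of these elements, on either strand, in capitals.
Per2 (chr9:99496994-99497243, minus strand): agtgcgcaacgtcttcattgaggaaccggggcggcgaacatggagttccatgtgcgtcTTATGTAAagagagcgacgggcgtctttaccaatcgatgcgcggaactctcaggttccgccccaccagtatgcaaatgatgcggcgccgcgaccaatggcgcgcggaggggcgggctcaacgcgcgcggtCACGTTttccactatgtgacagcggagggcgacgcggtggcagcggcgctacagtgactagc
Nr1d1 (chr10:84229455-84229704, minus strand): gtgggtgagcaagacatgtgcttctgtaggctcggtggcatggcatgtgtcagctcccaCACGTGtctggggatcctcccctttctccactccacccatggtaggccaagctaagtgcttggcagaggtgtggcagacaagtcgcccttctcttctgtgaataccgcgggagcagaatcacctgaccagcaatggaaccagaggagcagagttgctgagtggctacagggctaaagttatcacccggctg
Tef (chr7:115206577-115206826, plus strand): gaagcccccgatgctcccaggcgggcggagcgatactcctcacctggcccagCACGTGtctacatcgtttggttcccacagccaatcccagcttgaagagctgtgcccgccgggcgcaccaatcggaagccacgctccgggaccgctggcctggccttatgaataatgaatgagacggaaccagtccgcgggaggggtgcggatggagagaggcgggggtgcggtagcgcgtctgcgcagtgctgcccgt
Bhlhe40 (chr4:143174200-143174449, plus strand): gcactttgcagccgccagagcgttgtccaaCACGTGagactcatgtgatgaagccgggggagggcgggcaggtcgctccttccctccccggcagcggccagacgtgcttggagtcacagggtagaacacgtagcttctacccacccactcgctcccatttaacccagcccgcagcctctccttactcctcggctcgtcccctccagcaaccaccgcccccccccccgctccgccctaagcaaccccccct
Bmal1 (chr1:176766078-176766327, plus strand): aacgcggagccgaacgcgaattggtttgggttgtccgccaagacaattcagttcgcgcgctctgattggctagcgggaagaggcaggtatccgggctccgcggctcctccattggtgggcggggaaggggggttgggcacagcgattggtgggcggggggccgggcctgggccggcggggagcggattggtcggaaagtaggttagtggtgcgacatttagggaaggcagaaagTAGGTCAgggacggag
The E-box CACGTG lay 191 bases before the start in Nr1d1, 198 in Tef and 220 in Bhlhe40, and 5.59% of 33469 promoters held it. Per2 held the variant CACGTT at 62 bases before the start (4.07% of promoters) and a D-box at 192 (0.828%). Bmal1, the member that fell, held TAGGTCA 16 bases before the start, as did 2.26% of promoters somewhere in this window. The other Nr1d1 start in the table held CACGTT at 174 bases, and Per1 held none of these letters in its window. Motifs were chosen for these genes, and a match does not show that a factor binds.

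Over time, the clock difference widened for Per2 while its mean in no sponge rats became lower. Per2 averaged 8.90, 7.93 and 6.51 without a sponge at 1, 3 and 7 dps, and 8.50, 8.94 and 9.20 with rhBMP-2/ACS (3 arrays a group at 3 dps, 4 otherwise). In vehicle/ACS rats Per2 averaged 8.39, 8.81 and 9.15. The change of the rhBMP-2/ACS effect between 3 and 7 dps was tested across all probes. Only 2 of 11226 passed (0.0178%), Per2 with a change of 1.68 ± 0.31 (SE), adjusted p = 0.0378 and Tef with one of 1.7 ± 0.25 (SE), adjusted p = 0.00348, while 1194 had an unadjusted p under 0.05. This count was 1 without no sponge replicate 2 at 3 dps and without rhBMP-2/ACS replicate 1, 3 or 4 at 7 dps, 10 without replicate 1 of either group at 3 dps, and 0 when only the groups compared were fitted. Tef without a sponge averaged 6.86, 6.50 and 5.82 at the successive times, and with rhBMP-2/ACS 6.52, 5.98 and 6.96.

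**Figure D3:**
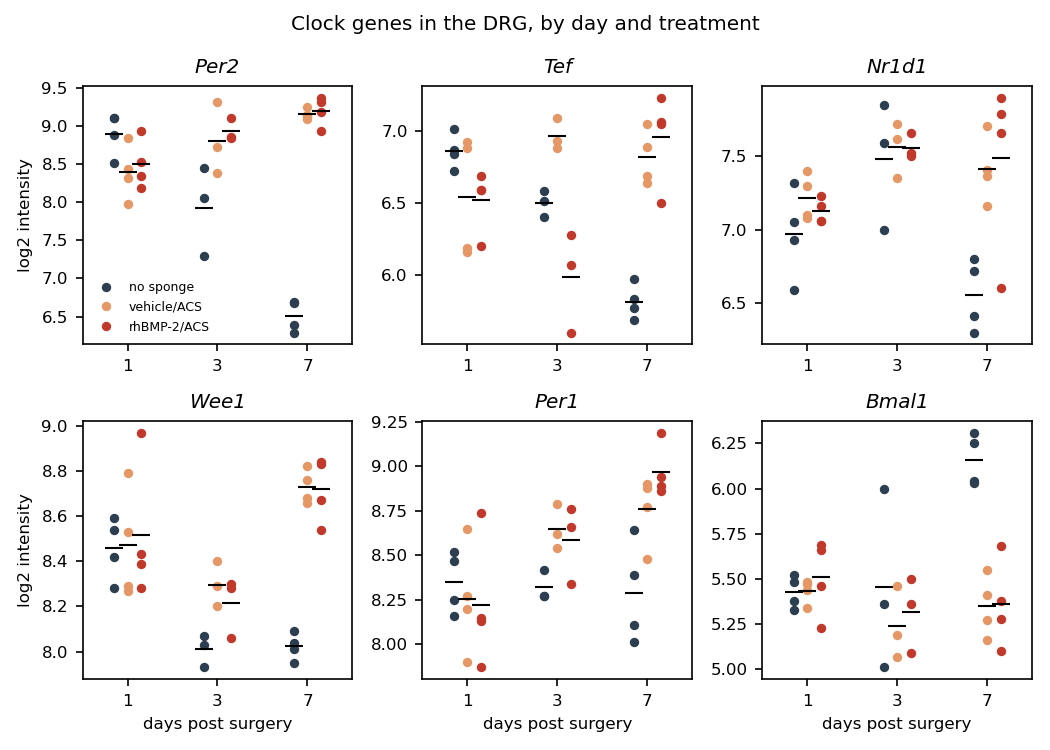
Log2 intensity (y axis) of clock genes in no sponge, vehicle/ACS and rhBMP-2/ACS rats at 1, 3 and 7 dps (x axis, days), with points for single arrays and black bars for the group means. The Per2 mean without a sponge is 8.90 at 1 dps and 6.51 at 7 dps, while the means of vehicle/ACS and rhBMP-2/ACS at 7 dps are 9.15 and 9.20.

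In the BMP pathway itself Hamp, Bmpr2 and Bambi rose at 7 dps. These were 3 of 23 measured receptors, Smads, targets and antagonists, against 2.86% of all probes, and none fell. In all, 6 of the 23 were tested only through their detection with rhBMP-2/ACS. The list had a median of 0.09 against −0.03 over all probes, and its higher count was 3 with each array left out in turn. Hamp, the iron hormone hepcidin and a Smad target in liver, gave 7.02, 6.82, 7.04 and 7.84 with rhBMP-2/ACS and 4.46, 4.55, 4.68 and 4.40 without a sponge. It was detected on no no sponge array, so that its change is at least 4.56-fold, with a fitted difference of 2.66 ± 0.42 (SE), adjusted p = 0.000263. Bmpr2, the type II receptor, gave 10.33, 9.38, 9.40 and 9.62 against 8.06, 8.68, 8.42 and 8.85 and rose by 1.18 ± 0.21 (SE), adjusted p = 0.00135. The groups did not overlap, replicate 1 of rhBMP-2/ACS being the highest. Bambi, a decoy receptor that is itself a BMP target, stood at 8.02, 8.34, 8.31 and 8.05 against 7.35, 7.75, 7.73 and 7.47. It rose by 0.60 ± 0.13 (SE), adjusted p = 0.00638. The immediate targets usually read for Smad signalling did not pass: Id1 differed by 0.40 (adjusted p = 0.197), Smad6, an inhibitory Smad, by 0.39 and Smad7, another, by 0.18. Among 14 measured genes of the related TGF-beta and activin pathway only Fstl3, a secreted binder of activin, rose (0.93, adjusted p = 0.000878), and without no sponge replicate 1 Ccn1 also passed (adjusted p = 0.0346). Tgfb1 and Tgfbi passed higher with only the groups compared (0.043 and 0.017) and with the 7 dps arrays alone (0.0407 and 0.0448).

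Set beside vehicle/ACS, which shares the no sponge arrays, Hamp and Bambi were higher with both sponges. Vehicle/ACS minus no sponge was 2.08 for Hamp and 0.65 for Bambi (adjusted p = 0.00152 and 0.00147), and 0.38 for Bmpr2 (adjusted p = 0.277). Bmpr2 on the vehicle/ACS arrays was 8.83, 9.22, 9.17 and 8.30. The direct difference between rhBMP-2/ACS and vehicle/ACS for Bmpr2 was 0.81 ± 0.21 (SE), adjusted p = 0.624.

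Promoters of Hamp and Bambi are shown as the BMP targets that rose. Capitals mark GGCGCC, a BMP response element, and, in Hamp, the STAT site TTCNNNGAA, through which interleukin 6 is known to act on hepcidin. Each is the 250 bases before the start from RefSeq (build GRCr8), 5′ to 3′ in the direction of the gene, searched on both strands.
Hamp (chr1:95300272-95300521, minus strand): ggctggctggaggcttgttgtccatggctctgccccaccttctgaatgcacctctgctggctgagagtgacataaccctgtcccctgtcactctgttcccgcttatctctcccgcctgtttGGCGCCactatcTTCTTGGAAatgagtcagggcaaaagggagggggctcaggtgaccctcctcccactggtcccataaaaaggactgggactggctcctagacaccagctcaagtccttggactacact
Bambi (chr17:58821004-58821253, minus strand): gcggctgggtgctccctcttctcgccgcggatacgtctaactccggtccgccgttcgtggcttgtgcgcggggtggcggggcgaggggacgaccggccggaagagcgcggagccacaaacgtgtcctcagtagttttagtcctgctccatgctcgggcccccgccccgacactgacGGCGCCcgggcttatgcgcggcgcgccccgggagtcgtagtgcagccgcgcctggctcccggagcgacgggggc
Hamp held GGCGCC at 129 bases and the STAT site at 117 bases before the start, so that they lie beside each other, and Bambi held GGCGCC at 74. GGCGCC occurred in 8.69% and the STAT site in 7.67% of 33469 promoters, and Bmpr2 held neither. Nothing on binding follows from these letters.

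Among immune genes, complement, the serum cascade that tags debris, had 8 of 14 measured members higher and none lower, with a median of 0.95. The count was 5 without rhBMP-2/ACS replicate 3, and without no sponge replicate 2 it was 6 higher and 1 lower. C4b, which links the initiation of the cascade to its effector steps, gave 9.30, 9.35, 9.93 and 9.60 with rhBMP-2/ACS and 8.02, 7.78, 7.94 and 7.69 without a sponge, a difference of 1.69 ± 0.20 (SE), adjusted p = 3.88e-06. The recognition subunits rose too, C1qa by 0.95, C1qb by 1.07 and C1qc by 1.18 (adjusted p = 0.0187, 0.0101 and 0.00466), as did the proteases C1r (0.95) and C1s (1.20) and their inhibitor Serping1 (1.19). C1qa and C1qb were not called without rhBMP-2/ACS replicate 3 (adjusted p = 0.089 and 0.0593). Nor was C1qa without no sponge replicate 1 or 2 (0.0507 and 0.054). The list averaged 8.53 to 8.90 with rhBMP-2/ACS and 7.81 to 7.96 without a sponge.

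Of 22 measured macrophage and monocyte markers 4 rose and none fell (Fcer1g, Clec10a, Ctss and Aif1, from 0.70 to 1.00), with a median of 0.45, and 6 of the 22 were tested only through their detection with rhBMP-2/ACS. These calls were close to the threshold: the count was 0 without rhBMP-2/ACS replicate 3 or no sponge replicate 2, 1 without no sponge replicate 1 or 3, and 2 without rhBMP-2/ACS replicate 4 or no sponge replicate 4. The mean level of the 22 markers was 7.20 to 7.43 with rhBMP-2/ACS and 6.72 to 6.90 without a sponge. This mean includes the 6 tested only through their detection with rhBMP-2/ACS, which had to differ in detection. Among 9 MHC class II genes 2 rose, RT1-DMb by 1.00 and Ifi30, a lysosomal reductase of antigen processing, by 0.72 (adjusted p = 0.00339 and 0.013), and Ifi30 was not called without rhBMP-2/ACS replicate 3 (adjusted p = 0.0925). In 5 of the 9 every rhBMP-2/ACS array lay above every no sponge array, against 6.57% of all probes. The count was 4 with only the groups compared and with the 7 dps arrays alone, where Cd74, the invariant chain (adjusted p = 0.0108 and 0.0115), and RT1-Da (0.00271 and 0.00138) also passed, and 3 with medians equalized.

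Among chemokines, the T cell attractants induced by interferon gamma rose. Cxcl9 gave 8.20, 8.61, 8.31 and 8.40 with rhBMP-2/ACS and 6.16, 6.52, 6.63 and 6.14 without a sponge, a difference of 2.02 ± 0.21 (SE), adjusted p = 4.33e-07. Cxcl10 rose by 1.29 ± 0.28 (SE), adjusted p = 0.00661, and Cxcl11 by 1.22 ± 0.28 (SE), adjusted p = 0.00901. Of 23 measured genes of the interferon list, which holds Cxcl9 and Cxcl11, these 2 changed, and the median was 0.18. The count was 5 with only the groups compared, and 4 with the 7 dps arrays alone and with medians equalized. Mx1, an antiviral GTPase (adjusted p = 0.00257, 0.0134 and 0.0108), and Psmb8, an immunoproteasome subunit (0.0148, 0.00954 and 0.0294), passed in these 3 settings. A2m, an acute phase inhibitor of proteases in rats, was at 10.56, 10.83, 10.68 and 11.17 against 8.66, 8.48, 8.68 and 8.58 and rose by 2.21 ± 0.29 (SE), adjusted p = 1.88e-05. Cx3cl1, the neuronal chemokine that macrophages sense, was lower, at 7.04, 7.38, 7.25 and 7.31 against 8.45, 8.70, 8.46 and 7.97. It fell by 1.15 ± 0.17 (SE), adjusted p = 7.94e-05, and the groups did not overlap. In the inflammatory mediator list these were 4 higher (A2m, Cxcl10, Icam1, Nfkbia) and 1 lower of 23, against 2 and 1 without rhBMP-2/ACS replicate 3 or 4 or no sponge replicate 2 or 3.

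Granulocyte genes were higher on average and varied widely from array to array. Of 15 measured, 8 rose and none fell, with a median of 0.85 and differences up to 2.30 for the defensin gene RatNP-3b. In all, 6 of the 15 were tested only through their detection with rhBMP-2/ACS, and such genes had to differ in detection. RatNP-3b, Defa5 and Np4 are similar in sequence, and how well single probes tell them apart is not known here. The neutrophil markers S100a9, Ltf and Cxcr2 were detected on none of the 8 arrays. S100a8, a calcium-binding protein of neutrophils, gave 8.35, 8.89, 10.17 and 9.42 with rhBMP-2/ACS and 7.98, 5.20, 6.04 and 8.69 without a sponge, so that the groups overlapped. Its difference was 2.23 ± 0.53 (SE), adjusted p = 0.0117, and it was not called without rhBMP-2/ACS replicate 3 or no sponge replicate 2 or 3 (adjusted p = 0.0768, 0.0713 and 0.0607). Other members were Defa5 (2.22), the secretory inhibitor Slpi (1.89, adjusted p = 0.0499, lost when any single array was left out), Np4 (1.71), Ngp (1.36), the ficolin Fcnb (at least 1.44-fold, fitted difference 1.01) and Pglyrp1 (0.85). The count of 8 was 1 without rhBMP-2/ACS replicate 3, 2 without no sponge replicate 2 or 3, 4 without rhBMP-2/ACS replicate 4 and 5 without rhBMP-2/ACS replicate 2, and 3 when only the groups compared were fitted. The list averaged 6.08, 6.57, 7.57 and 6.76 with rhBMP-2/ACS and 5.85, 5.13, 5.24 and 6.27 without a sponge, while erythrocyte genes averaged 7.88, 7.87, 8.53 and 7.88 against 8.04, 7.83, 7.74 and 8.22. No erythrocyte gene changed. The 2 lists share their high arrays, replicate 3 with rhBMP-2/ACS and replicate 4 without a sponge, and the part of blood in the granulocyte result was not tested.

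**Figure D4:**
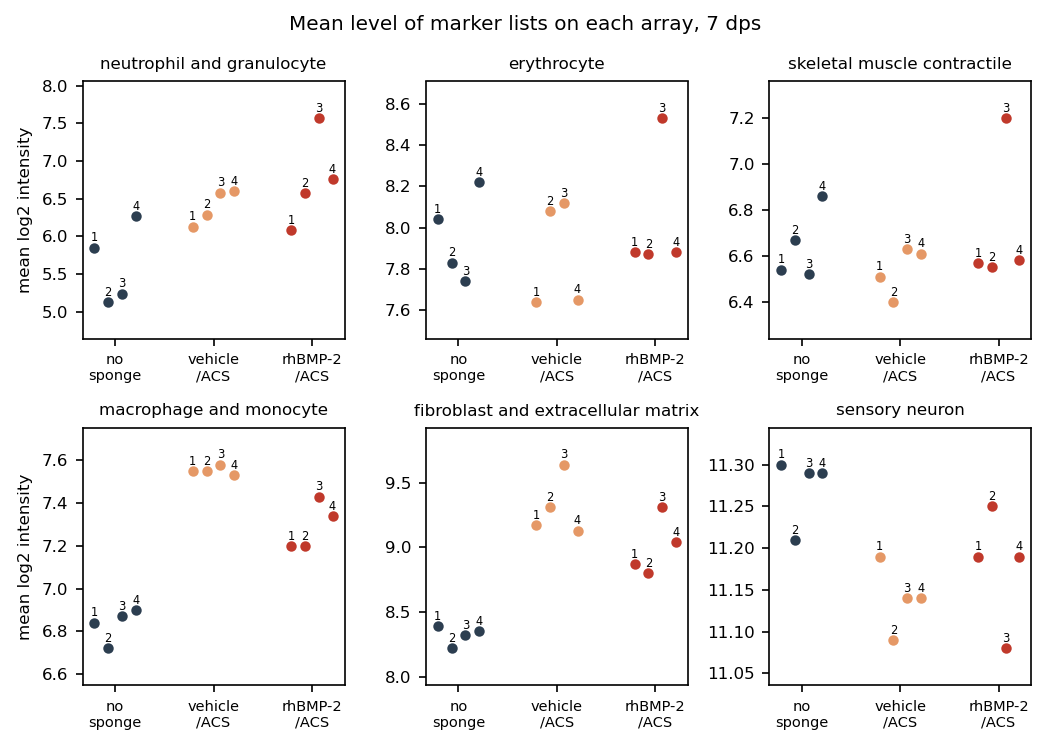
Mean log2 intensity (y axis) of the measured genes of marker lists on each 7 dps array, with numbered points for single arrays. Replicate 3 of rhBMP-2/ACS is the highest of its group for granulocyte (7.57), erythrocyte (8.53) and skeletal muscle contractile genes (7.20), while sensory neuron markers stay between 11.08 and 11.30 in rhBMP-2/ACS and no sponge.

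Of 35 measured extracellular matrix genes 14 rose and none fell, with a median of 0.60, and 10 passed without rhBMP-2/ACS replicate 3. Cthrc1, a secreted protein of activated fibroblasts, was at 8.24, 8.14, 8.95 and 8.58 with rhBMP-2/ACS and 6.38, 6.64, 6.54 and 6.59 without a sponge. It rose by 1.94 ± 0.26 (SE), adjusted p = 1.88e-05. Thbs2, a matrix thrombospondin, was undetected on every no sponge array (4.65, 4.64, 4.61 and 4.59) and stood at 6.73, 6.57, 7.68 and 6.93 with rhBMP-2/ACS. Its change is at least 3.95-fold, with a fitted difference of 2.35 ± 0.34 (SE), adjusted p = 7.81e-05. Col18a1, the source of endostatin in vessel walls, gave 8.18, 8.04, 8.89 and 8.04 against 6.94, 6.86, 7.09 and 6.88, with a difference of 1.35 ± 0.25 (SE), adjusted p = 0.00172, replicate 3 being the highest. Further members were fibronectin, Fn1 (1.51), the protease inhibitor Timp1 (1.14), the fibrillar collagens Col1a2 (0.56) and Col5a2 (0.85) and the proteoglycan Dcn (0.82). Thbs4, a thrombospondin outside the list known from injured ganglia, differed by 1.80 ± 0.36 (SE), adjusted p = 0.00318, and Fblim1, a filamin-binding adaptor that no no sponge array detected, was at least 2.86-fold higher, with a fitted difference of 1.77 ± 0.37 (SE), adjusted p = 0.00457. The list averaged 8.80 to 9.31 with rhBMP-2/ACS and 8.22 to 8.39 without a sponge.

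Of 30 measured cell cycle genes 12 rose and none fell, with a median of 0.58, and without rhBMP-2/ACS replicate 3 the count was 4. In all, 8 of the 30 were tested only through their detection with rhBMP-2/ACS, and such genes had to differ in detection. Prc1, which bundles the spindle midzone, gave 6.91, 6.53, 7.51 and 6.77 with rhBMP-2/ACS and 5.49, 5.21, 5.78 and 5.06 without a sponge and rose by 1.54 ± 0.23 (SE), adjusted p = 0.000108. Cdk1, the mitotic kinase, rose by 1.29 ± 0.30 (SE), adjusted p = 0.0102. Aurkb, a kinase of chromosome segregation, and Ccna2, a cyclin of DNA replication, were detected on all 4 rhBMP-2/ACS arrays and on no no sponge array, and were at least 1.98-fold and 1.65-fold higher, with fitted differences of 1.34 and 0.99 (adjusted p = 0.000212 and 0.00614). Mcm3, of the replicative helicase, rose by 0.81 (0.00413). Which cells held these transcripts cannot be read from whole ganglia.

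**Figure D5:**
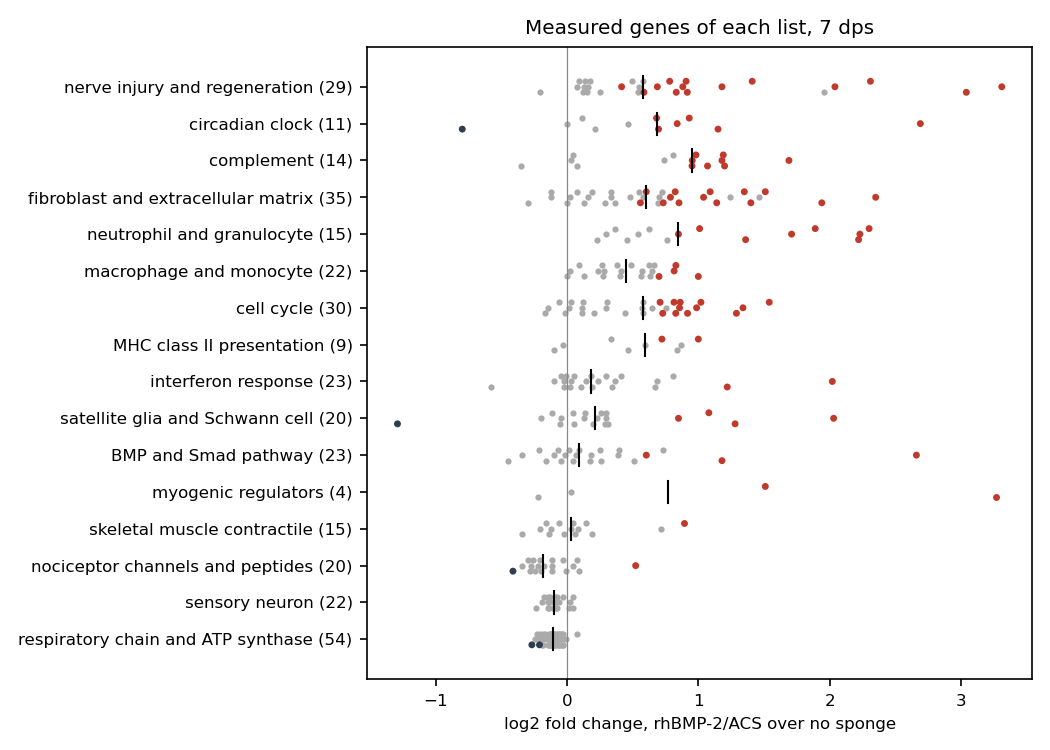
Differences between rhBMP-2/ACS and no sponge at 7 dps (x axis, log2) for the measured genes of each list, 1 point a gene, coloured where called, with the list median marked. By number, nerve injury (14 of 29 higher), extracellular matrix (14 of 35) and cell cycle (12 of 30) hold the most higher calls, and sensory neuron markers hold none. As a share of their list, complement (8 of 14), clock (6 of 11) and granulocyte genes (8 of 15) hold more. Tested only through detection with rhBMP-2/ACS were 7 nerve injury, 8 cell cycle, 6 granulocyte, 2 matrix, 1 complement and 0 clock genes. Such genes had to differ in detection. Of the 4 myogenic genes 2 rose, but 2 were tested only through rhBMP-2/ACS and 2 only through no sponge, so their share is not compared. Over all probes the share is 2.86%.

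Glial genes split. Of 20 measured genes of satellite glia and Schwann cells 4 rose and 1 fell, with a median of 0.21. Gldn, gliomedin of the Schwann cell microvilli at nodes of Ranvier, gave 9.20, 9.52, 10.02 and 9.07 with rhBMP-2/ACS and 7.19, 7.09, 7.71 and 7.71 without a sponge, with a difference of 2.03 ± 0.39 (SE), adjusted p = 0.00217. Egr2, the master regulator of myelination, rose by 1.08 ± 0.16 (SE), adjusted p = 9.78e-05, Cadm4, an adhesion protein between Schwann cell and axon, by 0.85 ± 0.15 (SE), adjusted p = 0.000749, and Gfap, an intermediate filament that satellite glia make after injury, by 1.28 ± 0.33 (SE), adjusted p = 0.021. Fabp7, a fatty acid binding protein of satellite glia, was the named gene that fell most. It stood at 10.34, 10.91, 10.12 and 11.14 with rhBMP-2/ACS and at 11.72, 12.11, 12.19 and 11.64 without a sponge and fell by 1.29 ± 0.24 (SE), adjusted p = 0.00177, or 2.45-fold. The highest rhBMP-2/ACS array lay below the lowest no sponge array, and the call held under each of 17 alternatives fitted with limma but not in the test of unequal variances (adjusted p = 0.16).

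Of 20 measured channels and peptides of nociceptors 1 rose and 1 fell, near the shares of 2.86% and 1.19% over all probes, with a median of −0.18. In 4 of the 20 every rhBMP-2/ACS array lay below every no sponge array, against 6.4% of all probes. Cacna2d1, the calcium channel subunit to which gabapentin binds, gave 11.23, 11.16, 11.20 and 11.04 with rhBMP-2/ACS and 10.46, 10.86, 10.54 and 10.67 without a sponge, a difference of 0.52 ± 0.10 (SE), adjusted p = 0.00177. Scn9a, the sodium channel Nav1.7, gave 4.68, 4.83, 4.70 and 4.81 against 5.36, 5.19, 5.12 and 5.0, was detected on no rhBMP-2/ACS array and on 3 no sponge arrays, and had a fitted difference of −0.41 ± 0.11 (SE), adjusted p = 0.0308. As a bound it was at least 1.18-fold lower. Its call was lost when rhBMP-2/ACS replicate 1, 3 or 4 or no sponge replicate 1, 2 or 3 was left out (adjusted p from 0.0525 to 0.124), with medians equalized (0.0948) and with the replicate block (0.0562). Chrna3, a nicotinic receptor subunit, fell by 0.76 (adjusted p = 0.00959) and was not called without rhBMP-2/ACS replicate 3 (0.0687). The sodium channel gene Scn10a, not called in the fit to all arrays, passed lower with only the groups compared and with the 7 dps arrays alone (adjusted p = 0.00845 and 0.0072), as did Scn11a in the former (0.0459). Asic3, an acid-sensing channel gene, passed lower with array weights, the replicate block and without no sponge replicate 2 (0.0431, 0.0381 and 0.0428). The potassium channel gene Kcnj5 fell by 0.74 (0.00441).

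The 15 named genes that rose most kept their call in all 17 alternatives fitted with limma but for Slpi. Of the 15 that fell most, 6 did so: Bmal1, Cx3cl1, Cyp2d4, Fabp7, Kcnj5 and Samd12. The test of unequal variances called 7 of the 15 higher and 1 of the 15 lower genes. With medians equalized, 7 of those 15 were no longer called, Gstm6, Mrgprb4, Scml4, Krt25, Gpr137b, Cst12 and Hnrnpa3. Without rhBMP-2/ACS replicate 3, 7 of the 15 were no longer called. Pnlip, a pancreatic lipase gene that fell by 1.02 (adjusted p = 0.0343), was lost with any single array left out. In general cell functions, 2 of 54 respiratory chain genes fell, against 1.19% of all probes. They were Ndufc2 by 0.27 and Ndufs5 by 0.21 (adjusted p = 0.00651 and 0.0285), and neither was called with medians equalized (0.342 and 0.419). The list's median was −0.11, and 1 of the 54 differences was above 0. In 14 of the 54 every rhBMP-2/ACS array lay below every no sponge array, against 6.4% of all probes. Of 57 ribosomal protein genes 4 rose (2.86% of all probes did), Rpl7a by 0.38 (0.000288). The count was 1 without rhBMP-2/ACS replicate 3 and 2 without no sponge replicate 2 or 3. The median of the 57 was 0.10, and 46 of the differences were above 0. In 14 of the 57 every rhBMP-2/ACS array lay above every no sponge array (6.57% of all probes), and in 1 below.

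The genes also measured by PCR were studied in the same rat model, and the paper describes a subset of them as known genes of inflammation, nerve injury and BMP-2 signalling. How every gene was chosen is not stated, and the list is not taken as independent of this experiment. Of these genes 14 were tested here and 3 rose: Atf3, S100a8 and Col18a1, with the values above. The others did not pass. Ccl2, a monocyte chemokine, differed by 0.57 (adjusted p = 0.208), Il1b by 0.12 and Ptgs2, the inducible cyclooxygenase, by 0.11. Fos differed by −0.64, the heat channel Trpv1 by −0.11, and the peptide precursors Tac1 and Pdyn by −0.01 and 0.01. Gapdh, often used as a reference, differed by 0.09. Probes for Tnf and Calca were not detected on enough arrays to be tested.

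Against no sponge, vehicle/ACS called more probes than rhBMP-2/ACS did: 723 higher (6.44%) and 479 lower (4.27%), with the same 4 no sponge arrays in both comparisons. The count of 1202 was 719 without vehicle/ACS replicate 2. List by list, higher calls with vehicle/ACS (in brackets with rhBMP-2/ACS) were 22 (14) in matrix, 20 (12) in cell cycle and 12 (4) in macrophage genes. They were 22 (4) in ribosomal protein, 9 (8) in complement, 8 (4) in inflammatory mediator, 5 (2) in MHC class II and 5 (4) in glial genes. Fewer rose with vehicle/ACS in nerve injury, 13 (14), clock, 4 (6), BMP pathway, 2 (3), and granulocyte genes, 2 (8). For the genes above, vehicle/ACS minus no sponge was 3.41 for Vip, 3.19 for Npy, 1.89 for Gal, 2.02 for Atf3, 2.91 for Csrp3 and 2.64 for Per2. Compared directly, rhBMP-2/ACS and vehicle/ACS at 7 dps differed in 0 of 11226 probes by limma (0% called, lowest adjusted p 0.243), with 714 at an unadjusted p under 0.05. The count was 8 without a detection filter, 1 with only these groups fitted and 1 when vehicle/ACS replicate 4 was left out. The direct difference was −0.10 ± 0.43 (SE) for Vip, 0.42 ± 0.28 for Gal, 0.05 ± 0.20 for Per2 and 0.58 ± 0.42 for Hamp. These calls do not show that the 2 sponge groups were alike, and the difference to no sponge carries the sponge in both.

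Across the time course, the same comparison called 0 probes at 1 dps (0%, 706 at an unadjusted p under 0.05, lowest adjusted p 0.133) and 887 at 3 dps (7.9%). The change of the effect between 1 and 7 dps itself passed in 88 probes (0.784%), 67 upward and 21 downward, a count that was 216 with medians equalized, where the median change over all probes was 0.15, and 51 without rhBMP-2/ACS replicate 3 at 7 dps. It was also 54 to 57 without no sponge replicate 1 at 1 dps, rhBMP-2/ACS replicate 1 or 2 at 1 dps, or no sponge replicate 1 or 2 at 7 dps. Npy averaged 7.18, 9.53 and 10.71 with rhBMP-2/ACS at 1, 3 and 7 dps and 6.78, 8.10 and 7.68 without a sponge, and its effect changed by 2.63 ± 0.43 (SE), adjusted p = 0.00173, between 1 and 7 dps. Gal averaged 7.63, 8.54 and 9.57 against 7.85, 7.69 and 7.26. The change for Gal was 2.53 ± 0.39 (SE), adjusted p = 0.000886. Atf3 averaged 7.94, 7.74 and 7.91 with rhBMP-2/ACS and 7.62, 6.45 and 5.88 without a sponge, so that its difference widened with lower no sponge means. Fabp7 changed by −1.70 ± 0.34 (SE), adjusted p = 0.0114, in the downward direction.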

How the data were processed

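RNA of L4/L5 DRG was hybridised to Illumina bead arrays, 1 array per sample. The study's methods name the Rat Ref-12 array and RNA integrity as an entry condition, while a protocol in the labels names a mouse array. The probes carry rat genes. Per the methods each array held RNA of 1 rat, and the samples with the best RNA were sent for arrays. The methods' own list of array samples gives no no sponge rats at 7 dps, and the same is assumed of these. The labels, whose DRG numbers run differently for no sponge, do not settle it. P-values measure the spread between these samples.

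The authors exported the mean bead intensity of 22523 probes from GenomeStudio (version not given in the sources used here) without normalization, and deposited beside each intensity a detection p-value against negative control beads. A deposited table of intensities with offset background subtraction and quantile normalization by the authors was used as an alternative, as log2 of the value (at least 0) plus 16.

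Background correction used limma's neqc, which here took its negative controls from the detection p-values (offset 16). Values were quantile normalized over 33 arrays and taken to log2. Probes were tested if the detection p-value was under 0.05 on at least 75% of the arrays of rhBMP-2/ACS or of no sponge at 7 dps, and 725 and 294 probes passed through 1 of these groups only. Such a probe had to differ in detection. Groups were fitted with limma 3.58.1 (R 4.3.3; lmFit and eBayes with a trend, 2-sided), and p-values were adjusted by Benjamini-Hochberg within each comparison. The same 11226 probes were used for all comparisons. Tested on simulated data with 50 changed probes a size among 11226, the fit for rhBMP-2/ACS against no sponge at 7 dps found 60% of those set to a log2 change of 0.5 and 98% of those set to 1, 1.5 or 2, with 10 false calls. The simulated noise was independent between probes, with the same spread in all groups. It held no shifts shared by many probes of 1 array, so these figures need not hold for the real arrays. The number of arrays limits the precision.

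Of the probes, 13793 had 1 gene symbol in GEO's platform annotation and 13752 of these matched a RefSeq gene ID. The 8730 others are counted but unnamed. A gene was taken at its brightest tested probe. Where no array of a group detected a probe, the change is given as a bound against the higher of the dimmest detected signal and the probe's own, array by array. Named genes were the 15 with the largest change in each direction among called genes whose groups did not overlap, up to 4 genes of lowest p in each list described, and the genes measured by PCR in the study. Other list members with a call, and Crh, were added after their values were seen. Members, gene lists and motifs were chosen with earlier results of these data known. Lists without any call in the fit to all arrays were adipocyte, endothelial, erythrocyte, cholesterol synthesis, perineurium and meninges, mast cell, oligodendrocyte and sensory neuron genes. Promoters were the 250 bases before each start in a RefSeq table (GRCr8), and Wee1, Atf3 and Jun had no entry in it. Alternatives were the normalization, the detection filter, the samples in the fit, array weights, the trend, the replicate block, single arrays left out and a per-gene test of unequal variances (not named in the study's methods) on the authors' values. The replicate numbers were not taken to pair the samples, save in the replicate block. Columns of all 33 samples were mapped by their labels. Figures were drawn with Python 3.11.15 and matplotlib 3.10.9.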

Additional observations from a re-analysis of the deposited data

Results flagged for a closer look

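In 17 of 234 groups of 4 values examined, 1 array lay further from the others than Dixon's 95% critical value allows, which chance alone does in about 1 of 20 groups. In 6 of the 17 that array was rhBMP-2/ACS replicate 3 at the high end. It was the highest for RT1-DMb (8.62), Tnnt3 (6.95), Rpl7a (12.15) and Col18a1 (8.89), and for the mean levels of skeletal muscle contractile genes (7.20) and erythrocyte genes (8.53). It was also the lowest of its group for the mean of respiratory chain genes (11.31). No sponge replicate 4 was the highest of its group for Gpr137b (6.35), the ficolin Fcnb (4.88), Klf9 (10.65) and the respiratory chain mean (11.48), and the lowest for the interferon mean (6.71). No sponge replicate 2 was the lowest for Ndufc2 (11.41), the sensory neuron mean (11.21) and the complement mean (7.81). Replicate 1 of rhBMP-2/ACS was the lowest for the lymphocyte mean (5.39) and replicate 2 for the mean of BMP pathway genes (6.80).

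For 27 named genes the rhBMP-2/ACS minus no sponge difference was not the same at 7 dps as at 1 dps by limma's test of the change itself, after adjustment over all probes. Among injury genes the change was 3.49 for Csrp3, 3.04 for Vip, 2.63 for Npy, 2.53 for Gal and 1.72 for Atf3. Per2 changed by 3.09, Tef by 1.49 and Bmal1 by −0.88. Matrix genes gave 2.44 for Thbs2, 1.71 for Cthrc1, 1.01 for Col5a2 and 0.70 for Col1a2. Immune genes gave 2.67 for Cxcl9, 1.91 for Cxcl10, 1.84 for Ngp, 1.83 for A2m, 1.56 for C4b, 1.41 for Serping1, 1.12 for C1r and −1.36 for Cx3cl1. Glial genes gave 1.01 for Egr2, 0.85 for Cadm4 and −1.70 for Fabp7. Cell cycle genes gave 1.64 for Prc1 and 1.30 for Aurkb, and Rpl7a and Ndufs5 gave 0.40 and −0.43. Between 3 and 7 dps the change passed for Per2 (1.68) and Tef (1.7).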

How the results depend on the processing

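For rhBMP-2/ACS against no sponge at 7 dps the count of 455 probes was 440 on the authors' values, 388 with medians equalized (15 of the lower calls against 134), 437 with detection in any group, 368 without a filter, 587 with only the groups compared, 416 without the trend and 480 with the replicate block. It was 683 with array weights and 24 by a per-gene test of unequal variances after adjustment, and 162 to 428 with 1 array left out. The 216 probes past the study's thresholds were 185 to 252 with 1 array left out. For vehicle/ACS against no sponge the count was 1202, 679 with medians equalized and 719 to 1168 with 1 array left out. For rhBMP-2/ACS against vehicle/ACS it was 0, 8 without a filter, 1 with only the groups compared and 0 to 1 with 1 array left out. The change of the effect from 3 to 7 dps passed in 2 probes, in 0 with only the groups compared, 10 with array weights, 5 without the trend, 4 with the replicate block and 1 to 10 with 1 array left out. From 1 to 7 dps it passed in 88 probes, in 216 with medians equalized, 165 with only the groups compared, 325 with array weights, 145 with the replicate block and 51 to 111 with 1 array left out. The causes were not tested.

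Of the 83 named genes with a call, 45 kept it in all 17 alternatives fitted with limma (10 passed the test of unequal variances), 33 lost it without rhBMP-2/ACS replicate 3, 13 with medians equalized and 1, Scn9a, with the replicate block (adjusted p = 0.0562). None changed direction. Same-numbered arrays of the groups did not deviate together (correlations of −0.052, 0.0299, −0.0926 and −0.0942), so that the numbers do not pair the samples. The arrays of 1 and 3 dps left out, and the list counts by setting, were alternatives chosen after seeing the data. Signal near background limits what was tested: about as many probes were left out by the detection filter as were kept.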

Other observations

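Gene groups outside those described above gave these values at 7 dps, where 2.86% of all probes rose and 1.19% fell. Of 18 measured glucocorticoid and stress genes 3 rose, Klf9 (0.60, adjusted p by limma = 0.0095), Gadd45g (0.91, 0.00337) and Per1, and the metallothionein gene Mt3 fell by 0.39 (0.0101). Without rhBMP-2/ACS replicate 3 these were 2 and 0. Of 17 immediate early genes 3 rose, Atf3, Egr2 and Jun, and 5 without no sponge replicate 1. The bone matrix gene Spp1 (0.36) and the osteoclast protease gene Ctsk (0.99) were the 2 calls among 10 cartilage and bone genes (adjusted p = 0.0243 and 0.0331), and 0 passed without rhBMP-2/ACS replicate 3 or 4 or no sponge replicate 1. Tagln, a smooth muscle actin binder, rose by 0.71 (0.0398) among 9 genes of pericytes and smooth muscle and was lost with any single array left out. Of 8 lymphocyte genes Nkg7 (0.56) and Ptprcap (0.60) passed (adjusted p = 0.0483 and 0.0434). In all, 4 of the 8 were tested only through their detection with rhBMP-2/ACS. Of the fits with 1 array left out Nkg7 passed only in that without rhBMP-2/ACS replicate 1. Ptprcap was lost without rhBMP-2/ACS replicate 2, 3 or 4 or no sponge replicate 1, 3 or 4 (0.0751 to 0.154). Its call was also lost on the authors' values (0.0654), without a filter (0.0724) and with the 7 dps arrays alone (0.083). Nkg7 was undetected without a sponge (at least 1.19-fold). Among 21 heat shock and 23 glycolysis genes Herpud1 rose by 0.39 (0.0119) and Pfkp fell by 0.23 (0.013), and neither passed without rhBMP-2/ACS replicate 3. In the fit to all arrays no adipocyte, endothelial, erythrocyte, cholesterol synthesis, perineurium and meninges, mast cell or central glia gene passed. With only the groups compared, Mgp and Crabp2 of perineurium and meninges passed higher (adjusted p by limma = 0.00786 and 0.0042). So did the endothelial genes Vwf and Cldn5 (0.0244 and 0.00846) and the adipocyte gene Cd36 (0.0298). The central glia gene Slc1a3 passed lower (0.0175).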
